A study of Homo sapiens with 14 samples.

Results

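The cytosolic ribosomal proteins are the protein components of the ribosome that translates nuclear-encoded messenger RNA. Their genes were taken from the count table by symbol: RPL or RPS followed by a number, with or without a final A or X, together with RPLP0, RPLP1, RPLP2 and RPSA. This gave 77 genes of 62703 listed, 46 of the large and 31 of the small subunit, and it left out pseudogenes and paralogs with other suffixes. Their messenger RNA was measured in 14 libraries from 3 prostate cancer cell lines that had been treated for 3 days with DMSO, the solvent, or with 1.5 µM of SEL120-34A, which blocks CDK8 and CDK19, the kinases of the Mediator complex. LNCaP cells need androgen to grow and respond to the antiandrogen enzalutamide, 22Rv1 cells still sense androgen but no longer respond to that drug, and PC3 cells grow without androgen signalling. LNCaP and 22Rv1 had 3 libraries in each arm, and PC3 had 1. No group carried a genetic change made by the study, and each line is a single established line. The study's methods call replicates biological unless noted otherwise, and the labels of these libraries do not say whether they came from separate cultures, so p-values measure only the spread between these libraries, which may be technical.

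A ribosome holds a single copy of most of these proteins and several of the acidic stalk proteins, and the proteins are made in matched amounts in every growing cell. Their transcripts are among the most abundant in proliferating cells and typically begin with a cytosine followed by a run of pyrimidines, the terminal oligopyrimidine (TOP) motif, through which the mTOR pathway adjusts their translation and stability. MYC is known to drive their transcription together with that of ribosomal RNA. When assembly is disturbed, unassembled RPL5 and RPL11 bind MDM2 and stabilise p53.

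To show what these messenger RNAs share at their start, the sequence around the transcription start listed by RefSeq on GRCh38.p14 was searched for a TOP motif, taken here as a C at the start base followed by at least 4 further C or T on the transcribed strand. Starts were listed for 62 of the 77 genes. Of these, 46 (74.2%) had a TOP motif at a listed start, compared with 1404 of 27305 genes with a listed start (5.14%). The windows below cover 10 bases before and 15 bases from the start, and capitals mark the pyrimidine run. They are shown for the 3 stalk proteins, for genes with a low adjusted p-value in 22Rv1 cells, for RPL13A, which differed most between the lines, and for RPS15, which had no TOP motif at its listed start.
RPLP0 (chr12:120201097-120201121, minus strand): ggcgcgaggcCCTTCTCTCgccagg
RPLP1 (chr15:69452808-69452832, plus strand): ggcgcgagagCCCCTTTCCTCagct
RPLP2 (chr11:809957-809981, plus strand): tcggcgccttCCTTTTCCTCCCTgt
RPS19 (chr19:41860245-41860269, plus strand): ccccgtcgttCCCTTTCCCCTggct
RPS16 (chr19:39435935-39435959, minus strand): ccctagctttCCTTTTCCggttgcg
RPL34 (chr4:108620566-108620590, plus strand): cttttttcttCCTCTTCCggggacg
RPS3 (chr11:75399508-75399532, plus strand): cgagccacttCCTTTCCTTTCagcg
RPS6 (chr9:19380222-19380246, minus strand): gaagttggccCTCTTTTCCgtggcg
RPL13A (chr19:49487598-49487622, plus strand): aaacctcctcCTTTTCCaagcggct
RPS15 (chr19:1438386-1438410, plus strand): aggcgcggaccaaagcgatctcttc

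Total counts ranged from 246063 to 909176 per library, and the 3 treated 22Rv1 libraries (246063 to 368778) were all shallower than their controls (476455 to 777207). The labels give the growth conditions of 22Rv1 cells for all 14 samples, those titled LNCaP and PC3 included, so the line named in each title was checked against markers. FOLH1, which encodes prostate-specific membrane antigen, was at 711 CPM (CPM being the counts of a gene relative to the library total after scaling with TMM factors) in LNCaP DMSO, at 148 CPM in 22Rv1 DMSO and at 6.53 CPM in PC3 DMSO libraries. VIM, an intermediate filament gene of PC3 cells, was at 29.1, 21.4 and 1262 CPM. COL1A2, DCN, PTPRC and CD3E, which mark fibroblasts and leukocytes, had 0 counts in all 14 libraries. Other markers checked for cells of other types did have counts. COL1A1 had 85 and 49 counts in the PC3 DMSO and SEL120-34A libraries (92.5 and 85.9 CPM). In LNCaP DMSO libraries it had 7 to 13 counts. CD68, PECAM1 and VWF had at most 4 counts in any library. Mitochondrially encoded genes took 13.9 to 17.3% of counts in LNCaP DMSO and 16.5 to 23.3% in LNCaP SEL120-34A libraries, and in 22Rv1 they took 7.60 to 9.82% in DMSO and 9.52 to 13.2% in treated libraries.

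The ribosomal protein genes together took 9.83% ± 0.280 (SD, n = 3) of all counts in LNCaP DMSO and 9.68% ± 0.591 in LNCaP SEL120-34A libraries. In 22Rv1 the share was 7.99% ± 0.318 in DMSO and 9.49% ± 0.509 in SEL120-34A libraries. The single libraries of 22Rv1 held 8.24, 7.63 and 8.09% in DMSO and 9.43, 10.0 and 9.02% after SEL120-34A, so every treated library lay above every control. In LNCaP the ranges overlapped, at 9.53 to 10.1% and 9.07 to 10.2%. The PC3 libraries held 7.25% (95% exact binomial interval 7.20 to 7.31%) in DMSO and 7.10% (7.03 to 7.16%) after SEL120-34A, where the interval covers counting error only. With mitochondrially encoded genes left out of the total, the shares were 8.74% ± 0.408 and 10.7% ± 0.789 in 22Rv1 and 11.7% ± 0.263 and 12.1% ± 0.263 in LNCaP. These are shares of counted RNA. A larger share and more of these transcripts per cell cannot be told apart in such libraries.

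**Figure D1:**
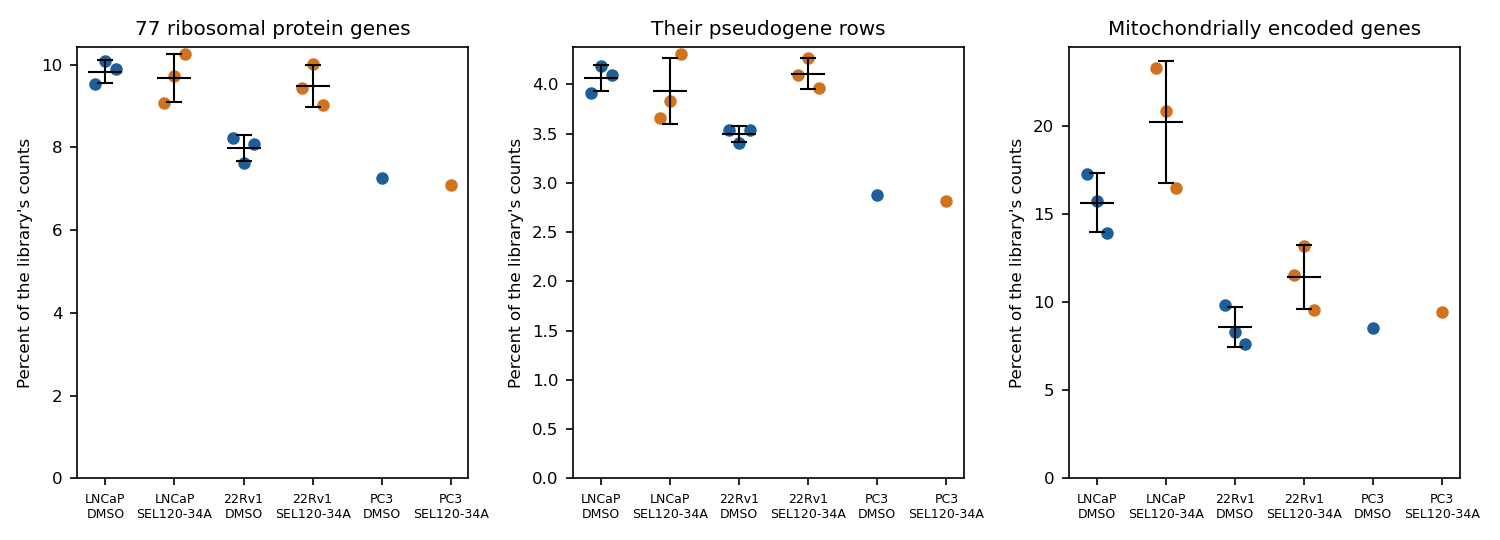
Percent of each library's counts that fell on the 77 ribosomal protein genes (left), on rows for their pseudogenes (middle) and on mitochondrially encoded genes (right), by cell line and treatment. Points are libraries (blue, DMSO; orange, SEL120-34A), and black lines are the mean ± SD of 3 libraries; PC3 had 1 library per arm. In the left panel the treated 22Rv1 libraries (9.02 to 10.0%) lie above their controls (7.63 to 8.24%), and the LNCaP arms overlap.

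Levels varied widely between the genes. Among the highest means over the 14 libraries were those of RPL15 (3954 CPM), RPL30 (3563 CPM), RPS2 (3559 CPM) and RPS6 (3310 CPM). Among the lowest were RPL17 (2.96 CPM), RPL36A (10.2 CPM), RPS27 (14.3 CPM) and RPS26 (29.3 CPM). The libraries count 3′ ends, so a level is not divided by transcript length. RPL17, RPL36A and RPS27 had 21, 68 and 88 counts in all 14 libraries and were among the 4 genes that did not pass the low-count filter and were not tested. The other 73 genes were.

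These genes have many processed pseudogenes, and 412 rows named after them as pseudogenes also held counts. For 20 of the 77 genes the pseudogene rows held more counts than the gene itself. The pseudogene share of the sum was 87.9% for RPL17, 98.7% for RPL36A and 93.2% for RPS26. It was 91.3% for RPL21, 86.7% for RPL7 and 83.2% for RPSA, and 0% for RPS16. How reads that match several places were assigned is not given in the sources used here, so levels of genes with large pseudogene shares are uncertain. The symbols RPS10, RPL17 and RPL36A are also part of readthrough genes, which had 0 counts.

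To determine whether the ribosomal protein genes responded to CDK8/CDK19 inhibition, SEL120-34A was contrasted with DMSO in each line over 7086 genes by the quasi-likelihood test of edgeR. In 22Rv1 cells 25 of the 73 tested genes rose and none fell at an adjusted p-value under 0.05, and 47 (64.4%) had an unadjusted p-value under 0.05, against 19.1% of all tested and 46.4% of the abundant other genes described next. Of all tested genes, 4.15% rose. Of the 343 other genes at least as abundant as the lower quartile of the ribosomal protein genes (372 CPM), 21.6% rose. The median level of those 343 genes was 604 CPM, against 997 CPM for the 73, so they were not fully matched for abundance. The median log2 fold change was 0.36 for the 73 genes, 0.16 for those abundant other genes and 0.00 for all tested genes, and 72 of the 73 values were positive. For 45 genes all 3 treated libraries lay above all 3 controls, and for none did they all lie below. Among all tested genes, 12.4% lay wholly above and 10.5% wholly below. The rise was small for each gene. The largest was below 2-fold.

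**Figure D2:**
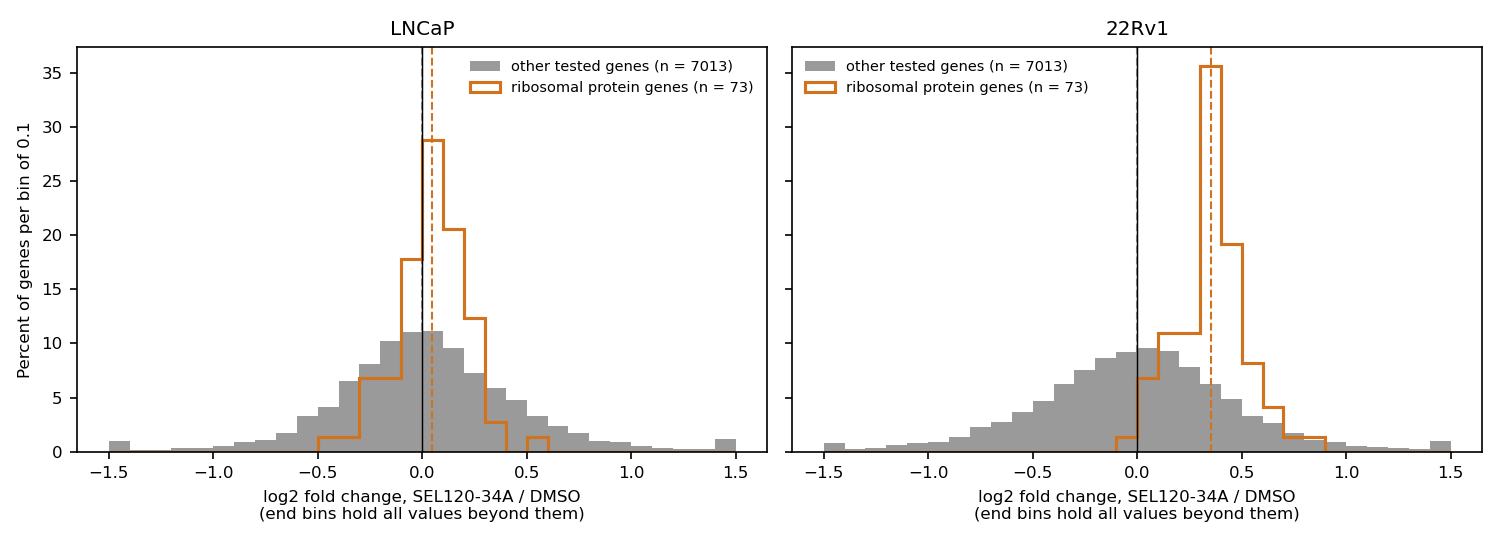
Log2 fold change after SEL120-34A in LNCaP (left) and 22Rv1 (right), as the percent of genes in each bin of 0.1, for the 73 tested ribosomal protein genes (orange outline) and the other 7013 tested genes (grey); dashed lines are medians, and the end bins hold all values beyond them. In 22Rv1 the ribosomal protein genes centre on 0.36 and the other genes on 0, and in LNCaP the ribosomal protein genes centre on 0.05.

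The genes of the stalk, through which the ribosome recruits translation factors, were all called in 22Rv1 cells, RPLP1 more firmly than the other two. RPLP1 (ENSG00000137818.12, GRCh38 chromosome 15, 69452814 to 69456205, plus strand), which is part of the stalk, was at 1639, 1361 and 1442 CPM in 22Rv1 DMSO and at 2654, 2983 and 2316 CPM in 22Rv1 SEL120-34A libraries. Every treated library exceeded every control, and the log2 fold change of 0.85 ± 0.12 (SE; adjusted p = 3.97e-06, edgeR) was the largest of the 73. RPLP0, which anchors the stalk, was at 2321, 1784 and 2112 CPM in DMSO and at 2728, 3292 and 2539 CPM after treatment, a log2 fold change of 0.47 ± 0.12 (adjusted p = 0.0151). RPLP2, the partner of RPLP1, was at 1237, 1174 and 1242 CPM and at 1607, 1807 and 1381 CPM, with a log2 fold change of 0.40 ± 0.12 (adjusted p = 0.0362). The control libraries of all 3 genes lay below the treated ones. RPLP0 was no longer called without DMSO replicate 2 (adjusted p = 0.0982) or treated replicate 2 (0.123). RPLP2 kept its call only when treated replicate 3 was the 22Rv1 library left out, and leaving out any of the other 5 gave adjusted p-values of 0.0958 to 0.201.

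Among the other large subunit proteins, RPL23A, which sits at the exit of the peptide tunnel, showed the second largest change. It was at 404, 296 and 341 CPM in 22Rv1 DMSO and at 513, 657 and 585 CPM in 22Rv1 SEL120-34A libraries, with a log2 fold change of 0.76 ± 0.14 (adjusted p = 2.57e-04). Its pseudogene rows held 63.0% of the summed counts. RPL34 rose from 322, 281 and 258 CPM to 452, 528 and 388 CPM, a log2 fold change of 0.68 ± 0.14 (adjusted p = 0.00163). RPL22, an RNA-binding protein that is not essential for translation, was at 261, 226 and 260 CPM in DMSO and at 369, 369 and 339 CPM after treatment, with a log2 fold change of 0.54 (adjusted p = 0.0407). This call was lost when any of the 6 libraries of 22Rv1 was left out (adjusted p from 0.0531 to 0.144). The arms did not overlap for any of these genes. RPL37A, RPL30, RPL27A, RPL15, RPL29, RPL32 and RPL19 also rose, with log2 fold changes from 0.39 to 0.47. Each of these calls was lost without 22Rv1 SEL120-34A replicate 1 (adjusted p from 0.0522 to 0.103, edgeR). In all, 13 of the 44 tested large subunit genes were called.

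Of the 29 tested small subunit genes, 12 rose. RPS19, which is needed for maturation of the small subunit and is mutated in Diamond-Blackfan anaemia, was at 2177, 1963 and 2026 CPM in 22Rv1 DMSO and at 3004, 3704 and 2673 CPM in 22Rv1 SEL120-34A libraries. The log2 fold change was 0.62 ± 0.12 (adjusted p = 7.83e-04, edgeR). RPS16 was at 2061, 1857 and 1790 CPM and at 2872, 3043 and 2553 CPM, with a log2 fold change of 0.58 ± 0.12 (adjusted p = 0.00106). For both genes the lowest treated library exceeded the highest control. RPS3, which lies at the entry of the messenger RNA channel, rose from 990, 893 and 990 CPM to 1290, 1562 and 1272 CPM (log2 fold change 0.53 ± 0.12, adjusted p = 0.00372). RPS24, RPS3A, RPS6, RPS4X, RPS27A and RPS14 rose by 0.44 to 0.53 on the log2 scale. RPS6 is the substrate of the S6 kinases, and RPS27A is made as a fusion with ubiquitin.

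RPS15 was called with a log2 fold change of 0.63 ± 0.17 (adjusted p = 0.0203), but its controls were uneven. They stood at 1276, 571 and 1288 CPM, against 1571, 1957 and 1312 CPM in treated libraries. Without the low control library, 22Rv1 DMSO replicate 2, the log2 fold change was 0.32 and the adjusted p-value 0.188 with edgeR, and leaving out replicates 1 and 2 of the treated arm in turn gave adjusted p-values of 0.0514 and 0.178.

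The 48 genes that were not called in 22Rv1 had mostly positive values. RPL5 and RPL11, which carry the small ribosomal RNA of the large subunit into the ribosome, had log2 fold changes of 0.33 (adjusted p = 0.0888) and 0.32 (adjusted p = 0.268), and treated libraries lay above controls for both. RPL3 and RPL4, which reach towards the catalytic centre and the peptide tunnel, had 0.30 and 0.11, RPL13A 0.33, RPL41, the shortest of these proteins, 0.32, and RPSA 0.34. RPL10, a late-joining protein, had 0.15, and RPL23 0.08. RPS20 was the 1 gene below 0, with -0.09 (adjusted p = 0.867). RPL8, another core protein of the large subunit, was at 3650, 2849 and 3761 CPM in DMSO and at 3266, 3605 and 3371 CPM in treated libraries, a log2 fold change of 0.01 ± 0.12. RPS2 was at 3436, 2632 and 3214 CPM and at 3387, 2914 and 3323 CPM, a log2 fold change of 0.07 ± 0.13. The arms of these 2 abundant genes overlapped, in contrast to those of RPLP0 or RPS16.

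**Figure D3:**
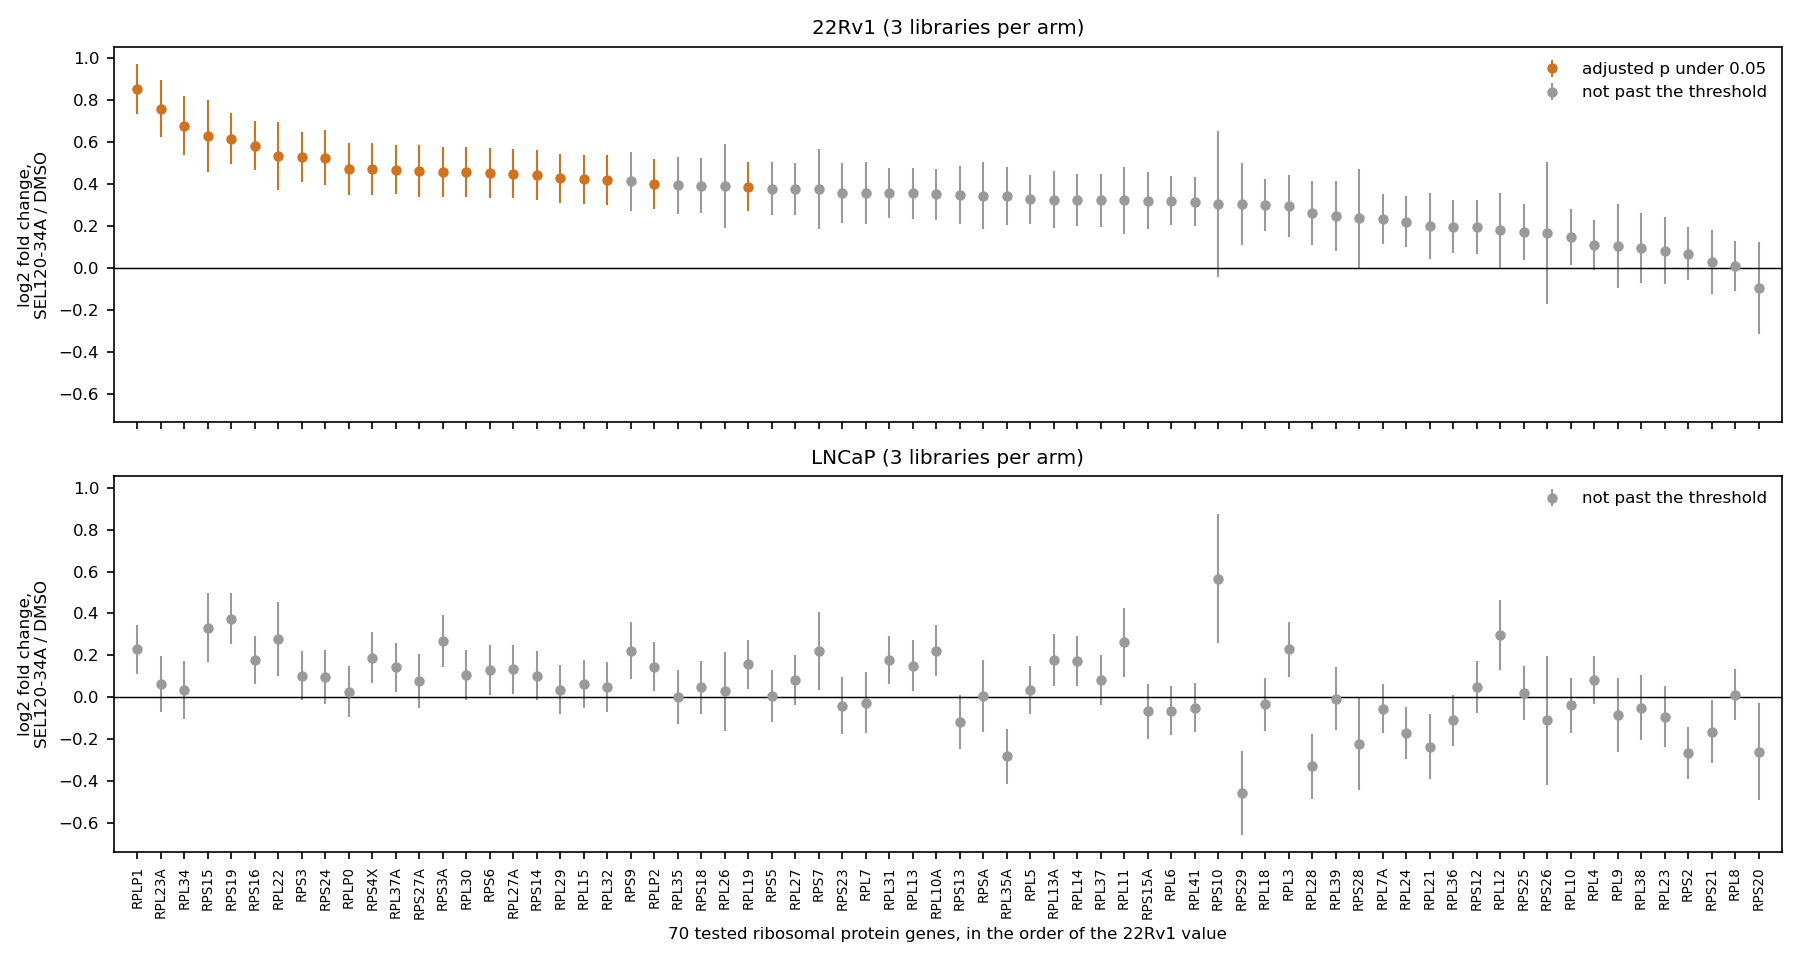
Log2 fold change after SEL120-34A, with its SE, for 70 of the 73 tested ribosomal protein genes in 22Rv1 (top) and LNCaP (bottom), in the order of the 22Rv1 value; orange marks an adjusted p-value under 0.05. Of the genes drawn, 69 lie above 0 and 23 pass in 22Rv1, and 46 lie above 0 and none passes in LNCaP.

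In LNCaP cells no ribosomal protein gene passed the threshold with edgeR, compared with 2.77% of all tested genes and 9.91% of the abundant other genes. DESeq2 and limma-trend also called none. An unadjusted p-value under 0.05 with edgeR was found for 6 genes (8.22%), compared with 13.5% of all tested and 31.5% of the abundant other genes. The median log2 fold change was 0.05, against -0.05 for the abundant other genes, and 48 of the 73 values were positive. Treated libraries lay wholly above the controls for 11 genes and wholly below for 4, against 8.76% and 10.7% of all tested genes. RPS19 came closest. It was at 1488, 1534 and 1455 CPM in LNCaP DMSO and at 1942, 1962 and 1772 CPM in LNCaP SEL120-34A libraries, without overlap, with a log2 fold change of 0.37 ± 0.12 (adjusted p = 0.104). The next were RPS29 (log2 fold change -0.46, adjusted p = 0.283), RPS3A (0.27, 0.306), RPL28 (-0.33, 0.326), RPL35A (-0.28, 0.333) and RPS2 (-0.27, 0.333). RPS2 was at 4732, 5024 and 4821 CPM in DMSO and at 3162, 4128 and 4547 CPM after treatment, so its treated libraries lay below the controls and also far apart from each other. Without treated replicate 1 the RPS2 value was -0.14. RPL28 was at -0.10 without DMSO replicate 1, and RPL35A at -0.12 without DMSO replicate 2. The stalk genes had log2 fold changes of 0.03 (RPLP0), 0.23 (RPLP1) and 0.15 (RPLP2). RPL5 had 0.03, RPL11 0.26, RPL23 -0.09, RPL3 0.23, RPL4 0.08, RPL10 -0.04, RPL13A 0.18, RPL22 0.28 and RPL41 -0.05. In the small subunit RPS3 had 0.10, RPS4X 0.19, RPS6 0.13, RPS14 0.10, RPS27A 0.08 and RPSA 0.00.

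To compare the responses of the lines directly, the difference of the log2 fold changes was tested as LNCaP minus 22Rv1. Its median over the 73 genes was -0.32, and 3 values were positive. The other abundant genes shared the direction in part, with a median of -0.21 and 22.2% of 343 positive. No ribosomal protein gene passed the threshold with edgeR, compared with 0.734% of all tested and 4.08% of the abundant other genes. An unadjusted p-value under 0.05 was found for 26, or 35.6%, against 11.4% of all tested and 25.1% of the abundant other genes. Limma-trend called none. The DESeq2 Wald test called RPLP1 alone, with an adjusted p-value of 0.0147. The smallest edgeR values were those of RPLP1 (-0.62 ± 0.17, adjusted p = 0.0723), RPL23A (-0.69 ± 0.19, 0.0787), RPL34 (-0.64, 0.142), RPL35A (-0.63, 0.142), RPS29 (-0.76, 0.262) and RPL28 (-0.59, 0.263), which was at -0.34 without LNCaP DMSO replicate 1. RPLP1 stood at 2581, 2537 and 2519 CPM in LNCaP DMSO and at 2924, 3028 and 2800 CPM in LNCaP SEL120-34A libraries. Treated 22Rv1 libraries, at 2316 to 2983 CPM, spanned the LNCaP controls, whereas untreated ones, at 1361 to 1639 CPM, lay below them.

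**Figure D4:**
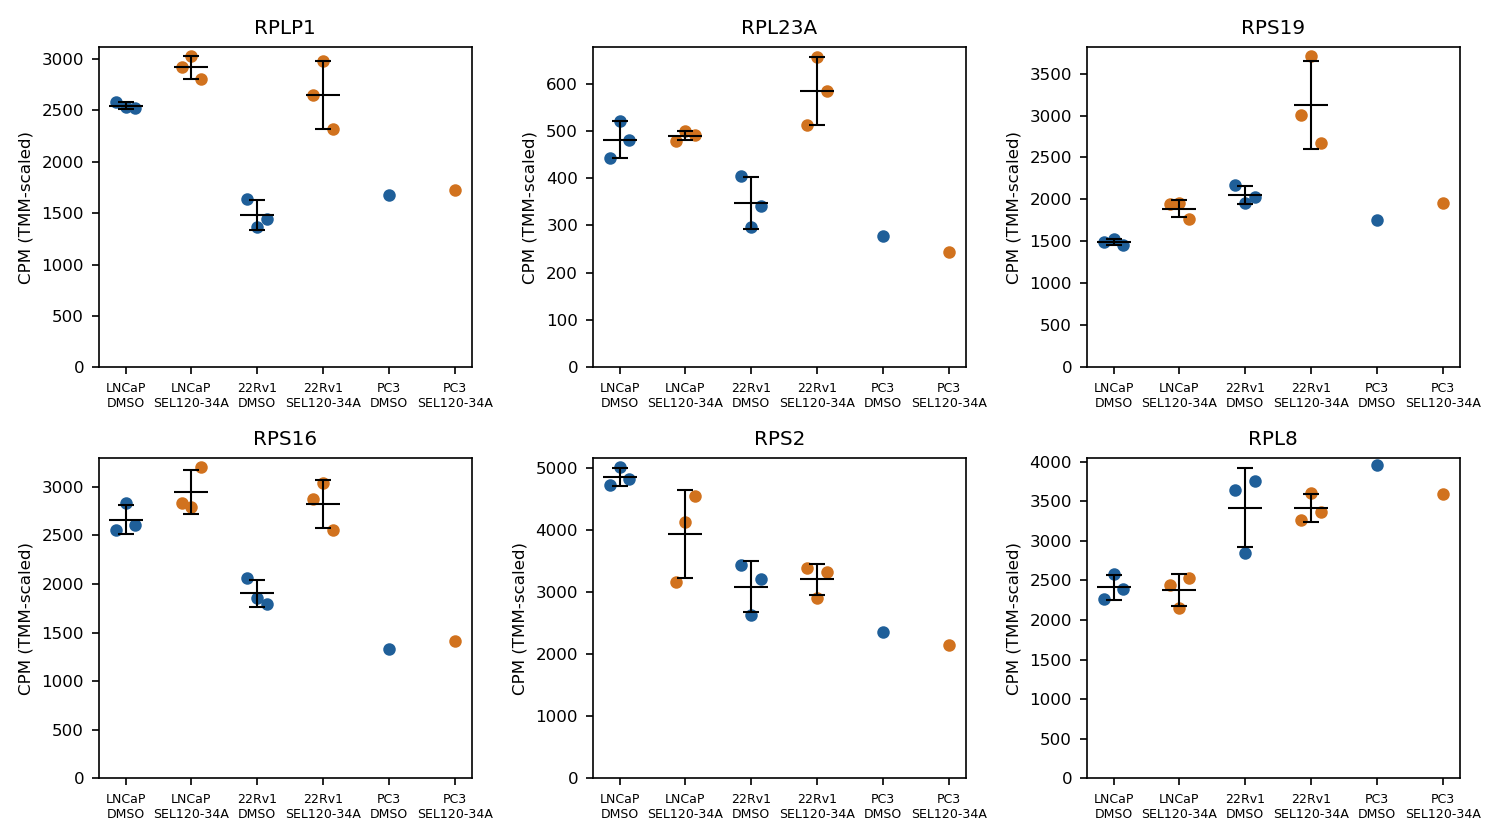
CPM of RPLP1, RPL23A, RPS19, RPS16, RPS2 and RPL8 by cell line and treatment; points are libraries (blue, DMSO; orange, SEL120-34A) and black lines are the mean ± SD of 3 libraries, with 1 library per arm in PC3. In 22Rv1 the arms separate for RPLP1, RPL23A, RPS19 and RPS16 and overlap for RPS2 and RPL8.

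The lines also differed without the inhibitor. In DMSO, 51 of the 73 genes were higher and 6 lower in LNCaP than in 22Rv1 cells, compared with 24.0% higher and 25.0% lower among all tested genes and 43.7% and 24.5% among the abundant other genes. The median log2 difference was 0.49, against -0.03 for all tested genes and 0.20 for the abundant other genes. RPL13A, which is known for regulating translation outside the ribosome, was at 1295, 1694 and 1619 CPM in LNCaP and at 636, 466 and 605 CPM in 22Rv1, a log2 difference of 1.43 ± 0.13 (adjusted p = 1.97e-12, edgeR). RPL5 was at 3977, 4241 and 4309 CPM and at 1900, 1733 and 1839 CPM, a log2 difference of 1.20 ± 0.12 (adjusted p = 1.84e-11). The lines did not overlap for these genes. RPL7A (0.91) and RPS12 (0.90) were also among the largest, and higher too were RPL37, RPS14, RPL4, RPLP1, RPS13, RPL31, RPL19, RPL14, RPL3, RPS6, RPL27, RPL35, RPL35A, RPS23, RPS24, RPL37A, RPS2, RPL27A, RPL36, RPL23, RPL39, RPS3 and RPS15, with log2 differences from 0.54 to 0.87.

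The 6 genes that were lower in LNCaP were RPSA, RPL8, RPL22, RPS19, RPL11 and RPS3A. RPSA, also known as the laminin receptor, was at 262, 427 and 350 CPM in LNCaP DMSO and at 516, 494 and 524 CPM in 22Rv1 DMSO libraries (log2 difference -0.58 ± 0.16, adjusted p = 0.00269). RPL8 was at 2271, 2579 and 2388 CPM in LNCaP DMSO libraries (-0.50 ± 0.12, adjusted p = 6.35e-04). RPL22 was at 141, 244 and 161 CPM in LNCaP DMSO libraries, which overlapped with 22Rv1 (-0.50 ± 0.16, adjusted p = 0.0103). RPS19 had -0.46, RPL11 -0.41 and RPS3A -0.40. RPS27A was not called (-0.22, adjusted p = 0.134).

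Scaling bore on these counts. With library totals in place of TMM factors, the median of all tested genes moved by -0.14 in the 22Rv1 response and by -0.21 in the comparison of lines. The medians of the ribosomal protein genes were then 0.20 and 0.27, and 8 genes were called higher in treated 22Rv1 cells. The calls over all genes in 22Rv1 were 294 higher and 110 lower with TMM, and 144 and 231 with library totals. In the comparison of lines they were 1701 and 1772 with TMM and 1211 and 2362 with library totals. When all 12 libraries were thinned to the depth of the shallowest, 8 of 72 genes were called in 22Rv1, with a median of 0.33. With mitochondrially encoded genes removed, 24 were called.

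Single 22Rv1 libraries also weighed on the count. Leaving out DMSO replicate 2 gave 12, and leaving out DMSO replicate 3 gave 10. Leaving out replicates 1 and 2 of the treated arm in turn gave 10 and 9. In each of the 26 alternatives that gave a test of 22Rv1 at the same threshold, 6 genes were called, among them RPLP1, RPL23A, RPS16 and RPS19, and all 25 called genes stayed positive in each of them.

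PC3 cells had 1 library per arm and therefore no test. Among the 72 genes with at least 10 counts in both libraries, the median log2 ratio of SEL120-34A to DMSO was 0.02. Of these genes, 1 was past 1.5-fold, compared with 15.7% of 7089 genes with that many counts. The 7089 genes were not matched for abundance, and counting error spreads ratios more where counts are low. The gene past 1.5-fold was RPS20, with 22 and 27 counts (log2 ratio 0.98, 95% interval 0.12 to 1.86, counting error only). RPLP1 was at 1673 and 1722 CPM, RPLP0 at 2273 and 2578 CPM, RPS19 at 1756 and 1960 CPM and RPL23A at 279 and 244 CPM. RPS7, which can bind MDM2, was at 377 and 270 CPM, the lowest ratio of the 72 (-0.48).

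In DMSO the PC3 library lay below all LNCaP libraries for 57 of the 77 genes, within their range for 12 and above it for 8. Against 22Rv1 it lay below for 43, within for 15 and above for 19. These counts include the genes that were not tested. They were not made over all genes, so no background share stands beside them. RPS24, a small subunit protein that is mutated in Diamond-Blackfan anaemia, stood out at 2599 CPM in PC3, compared with 827, 929 and 789 CPM in LNCaP and 573, 533 and 491 CPM in 22Rv1. RPL30 was at 5446 CPM in PC3, against 3068 to 3152 CPM in LNCaP and 2596 to 3106 CPM in 22Rv1. RPL22 (321 CPM) and RPL8 (3958 CPM) were also above all DMSO libraries of both other lines, and RPS3A (514 CPM) was below all of them. With a single PC3 library these differences have no replicate check.

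**Figure D5:**
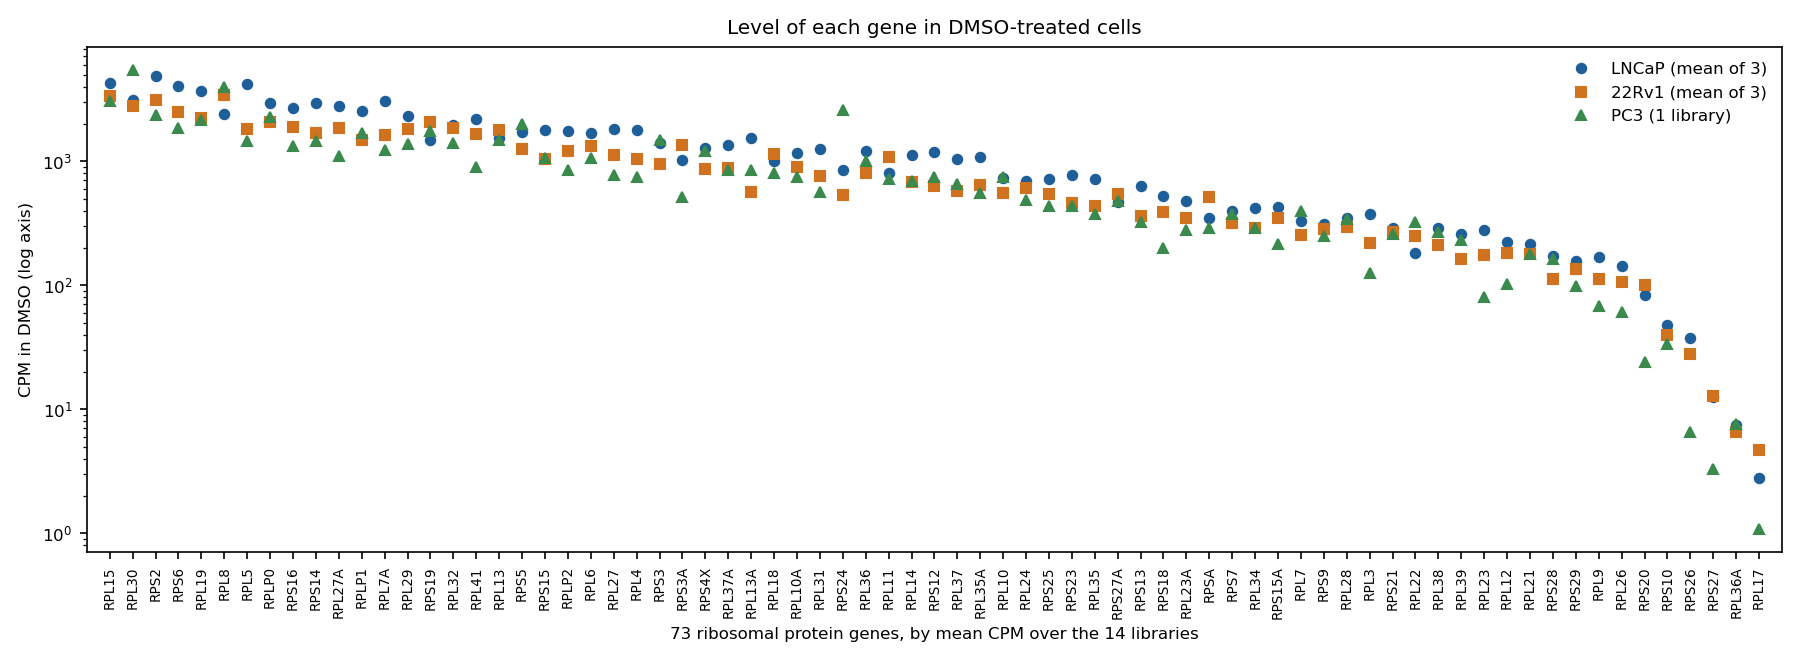
CPM in DMSO (log axis) for 73 of the 77 ribosomal protein genes, ordered by their mean over the 14 libraries, in LNCaP (circles) and 22Rv1 (squares), each the mean of 3 libraries, and in PC3 (triangles, 1 library). Points at 0 CPM are not drawn. LNCaP lies above 22Rv1 for most genes, RPSA, RPL8, RPS19 and RPS3A are among the exceptions, and RPS24 is highest in PC3.

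Most genes followed the mean of the group across the 12 LNCaP and 22Rv1 libraries. The Pearson correlation of each gene's log2 CPM with the mean of the 73 genes, which includes the gene itself, had a median of 0.82, and 57 genes were above 0.5. It was highest for RPS18 (0.98) and lowest for RPL8 (-0.52), and RPSA, RPS20, RPL22, RPL11 and RPS3A were also below 0. RPS19 (-0.07), RPS27A (-0.05), RPL18 (-0.05) and RPL13 (-0.02) lay just below 0. The libraries share their line and their depth, so these values are descriptive. The 5 other genes with the most alike pattern were NACA (0.96), which encodes a subunit of the complex that binds nascent peptides, UQCRH (0.95), a subunit of respiratory complex III, and 3 features without a symbol.

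Sets of these genes by role had medians near that of all 73 in 22Rv1. Among proteins reported to bind MDM2, 3 of 9 tested genes rose (33.3%, median 0.38). Among those mutated in Diamond-Blackfan anaemia 3 of 16 rose (18.8%, median 0.35). The called genes were RPS3, RPS14 and RPS27A in the first group and RPS19, RPS24 and RPL15 in the second. For comparison, 34.2% of all 73 genes rose, 21.6% of the abundant other genes and 4.15% of all tested genes. Genes with a TOP motif at a listed start had a median log2 fold change of 0.36 (44 tested, 16 called), and those without one had 0.35 (15 tested, 5 called). Genes with under 1% of their summed counts on pseudogenes had a median of 0.39 (28 tested, 14 called), and those with 50% or more had 0.33 (17 tested, 3 called).

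Ribosomal proteins with other symbols were examined alongside. FAU, which encodes a small subunit protein as a fusion, was at 401, 373 and 385 CPM in 22Rv1 DMSO and at 502, 622 and 485 CPM in 22Rv1 SEL120-34A libraries (log2 fold change 0.48, adjusted p = 0.0273, edgeR). RACK1, a scaffold on the small subunit, had 0.34 (adjusted p = 0.0768) and was not called. Of 6 tested paralogs, 2 rose (33.3%) and 1 fell (16.7%) in 22Rv1, against 4.15% and 1.55% of all tested genes. RPS27L, a p53-responsive relative of RPS27, was at 98.2, 93.6 and 111 CPM in 22Rv1 DMSO and at 223, 309 and 182 CPM after treatment, with a log2 fold change of 1.21 ± 0.18. RPL36AL was at 355, 307 and 287 CPM and at 576, 648 and 505 CPM (log2 fold change 0.88 ± 0.13), compared with 0.10 in LNCaP. For RPL36AL the difference between the lines passed the threshold (-0.78 ± 0.19, adjusted p = 0.0336). RPL7L1, which acts in ribosome assembly, fell by 0.98 on the log2 scale in 22Rv1 (adjusted p = 0.0247).

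Between the lines, RPL22 and its paralog RPL22L1 stood in opposite order. RPL22L1 was at 2233, 2280 and 2191 CPM in LNCaP DMSO and at 911, 696 and 751 CPM in 22Rv1 DMSO libraries (log2 difference 1.51 ± 0.12, adjusted p = 4.63e-14), whereas RPL22 was lower in LNCaP. In PC3 DMSO RPL22L1 was at 169 CPM and RPL22 at 321 CPM. RPL39L had 0 counts in all LNCaP DMSO libraries and was at 183, 114 and 194 CPM in 22Rv1 DMSO libraries. Taking 3 counts over the LNCaP DMSO group as the floor, it was at least 98.6-fold higher in 22Rv1.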

How the data were processed

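Libraries were made by BRB-seq, a 3′ tag method. Reads were aligned and counted by the authors with STARsolo (GRCh38.p13, Gencode release 43), per the labels and methods. The deposited table holds raw counts of 62703 genes, and 39546 genes were at 0 throughout. Handling of molecular identifiers, multiple matches and strand is not given in the sources used here, so intervals cover only counting error. A second deposited table holds log2 CPM for 9638 genes, which TMM factors over the 14 libraries and a prior count of 2 gave to within 5e-14.

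Counts of the 12 LNCaP and 22Rv1 libraries were fitted in 1 model with 4 group means in edgeR 4.0.16 (R 4.3.3), by its quasi-likelihood F-test with TMM, leaving 8 residual degrees of freedom. Its filter on low counts kept 7086 genes. P-values were adjusted over all tested genes by Benjamini-Hochberg, with a threshold of 0.05. Levels are CPM scaled with TMM factors over the 14 libraries, as mean ± SD. PC3 ratios used an offset of 0.5 counts. Coordinates came from Gencode release 44, where all 77 identifiers matched, and start sequences from RefSeq on GRCh38.p14. Alternatives were run with DESeq2 1.42.0, limma 3.58.1 and other scalings, filters and sample sets. On simulated counts 6564 genes were kept, and some of these carried a log2 change of 1.5. Of the changed genes edgeR recovered 92.2% for LNCaP, with 5.17% false calls, and 85.9% for 22Rv1, with 6.25% false calls. Recovery at smaller log2 changes was not tested. The largest log2 fold change of a tested ribosomal protein gene was 0.85 in 22Rv1 and 0.57 in LNCaP.

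Some genes were tested and counted, but their own values are not reported here. The genes and lists were chosen with earlier results of these data known. Named genes were all called genes up to 30 per comparison (where fewer than 6 passed, the 6 with the smallest p), the 5 highest and 5 lowest by level, a panel of 19 by role, and the 5 other genes most correlated with the mean.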

Additional observations from a re-analysis of the deposited data

Results flagged for a closer look

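RPL24 encodes a large subunit protein. In LNCaP it was at 714, 694 and 673 CPM in DMSO and at 585, 580 and 640 CPM after SEL120-34A, and every treated library lay below every control. In 22Rv1 it was at 671, 541 and 619 CPM in DMSO and at 744, 678 and 687 CPM after treatment, and every treated library lay above. This opposite order of the libraries is why it is listed. The log2 fold changes were -0.17 ± 0.12 and 0.22 ± 0.12, and neither was called. The test of the difference gave -0.39 ± 0.17 (adjusted p = 0.381, edgeR), which did not pass.

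The rows for pseudogenes of the ribosomal protein genes, which entered no comparison of the genes themselves, took 4.11% ± 0.155 (SD, n = 3) of counts in 22Rv1 SEL120-34A libraries and 3.49% ± 0.0783 in 22Rv1 DMSO libraries. Every treated library (3.96 to 4.27%) lay above every control (3.40 to 3.54%). In LNCaP they took 4.06% ± 0.136 in DMSO and 3.93% ± 0.333 after treatment. With pseudogene counts added to their genes, 28 of 76 genes were called higher in 22Rv1, and these held all 25 called without them.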

How the results depend on the processing

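All 25 genes called in 22Rv1 stayed positive in the 26 alternatives at the same threshold, but the count depended on the setting. It was 8 with library totals (median log2 fold change 0.20), 9 without a low-count filter, 8 after thinning, 10 with limma-trend, 8 at an adjusted p under 0.01, 17 with the line alone and 9 to 29 with 1 library left out. DESeq2 called 27. In LNCaP the count was 0 except with at least 10 counts in every library and with the line alone, where it was 1 (RPS19), and the median was -0.041 with library totals and -0.028 without a filter. For the difference of responses the count was 0 except that RPLP1 alone (1 gene) was called with the replicate block, without mitochondrial genes, with PC3 added, with DESeq2 and without 22Rv1 SEL120-34A replicate 3, so the range with 1 library left out was 0 to 1. The median difference was -0.22 with at least 10 counts in every library. Between the lines in DMSO the median was 0.27 with library totals, and 38 of 57 calls held in 25 alternatives. In PC3 6 of 77 genes were past 1.5-fold (49.1% of all genes with a count, not matched for abundance), and 1 with at least 10 counts (15.7%). The cause was not tested.

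Same-numbered libraries deviated together little (r from -0.05 to 0.12), and differently numbered ones had r from -0.16 to 0.07. Counting error adds to these deviations, so the values cannot settle whether the numbers pair samples. With the replicate block 27 genes were called in 22Rv1, 0 in LNCaP and 1 for the difference. Over all tested genes the block gave 240 calls in LNCaP and 450 in 22Rv1, against 196 and 404 without it. With 1 library left out, the share of counts after treatment relative to DMSO was 1.16 to 1.22 in 22Rv1 and 0.956 to 1.02 in LNCaP. Depth limits the 4 genes with up to 88 counts, which were not tested.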

Other observations

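Other parts of the translation machinery are given beside the share of all tested genes that rose in 22Rv1, 4.15%. Their genes were less abundant than the cytosolic ribosomal protein genes (median 119 CPM for mitochondrial ribosomal proteins and 49.6 CPM for assembly factors, against 997 CPM). Of 70 tested mitochondrial ribosomal protein genes, MRPL34 (log2 fold change 0.62) and MRPS23 (0.55) rose after SEL120-34A (2.86%), with a median of 0.14, and in LNCaP the median was -0.15 with no call by edgeR (6 had an unadjusted p under 0.05). Of all tested genes 1.55% fell in 22Rv1. Of 24 tested ribosome assembly factors, GNL3, a nucleolar GTP-binding protein, fell there by 0.78 on the log2 scale (4.17%, adjusted p = 0.0464, edgeR). None of the 24 rose, and the median was 0.03. None was called in LNCaP by edgeR, or had an unadjusted p under 0.05.

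Of 24 tested translation factors and other TOP transcripts, FAU and SNHG6, a host gene of small nucleolar RNAs (log2 fold change 0.81), rose in 22Rv1 (8.33%). In LNCaP HNRNPA1 (-0.59), NAP1L1 (-0.57) and SNHG1 (-0.74) fell (12.5%), against 0.776% of all tested genes and 3.50% of the abundant other genes. EEF1A1, the elongation factor, had 0.11 in 22Rv1 and -0.13 in LNCaP, and neither was called. The differences between these lists were not tested.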
